A study of Arabidopsis thaliana with 4 samples.

Results

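Open chromatin was mapped at 9 genes that control the formation of trichomes, the single-celled hairs of the shoot epidermis, in flowers of Arabidopsis thaliana wild type and of the mbd9-3 mutant. The genes were chosen by name: GL1 (listed as MYB0 in RefSeq), WER, MYB23, GL3, EGL3, TTG1, GL2, TRY and CPC, which are 9 of 27444 protein-coding genes on chromosomes 1 to 5. That choice was made with earlier results of these data known. The GL1 locus was selected on its measured values, because a strong peak beyond the 3′ end of the gene was listed in each wild-type library but in no mbd9-3 library. The difference between genotypes at that peak is therefore described below without a test. For each gene, all peaks were taken whose summit lay between 2 kb upstream of the transcription start site (TSS) and 4 kb past the end of the gene. This gave 146 summits over the 4 libraries, in 55 of the 64218 regions into which all peaks merged when they shared at least 1 bp.

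The assay was ATAC-seq, which uses the transposase Tn5 to cut and tag DNA that is not covered by nucleosomes. All plants were of the Columbia-0 accession, raised in a greenhouse with long days until 4 weeks old, and nuclei came from their flowers. The wild-type group had 2 libraries and carried no stated mutation, and the mbd9-3 group had 2 libraries from plants with a T-DNA insertion in MBD9, which encodes a methyl-CpG-binding domain protein associated with the SWR1 complex that deposits the histone variant H2A.Z. The comparison asked how open chromatin differed between wild type and mbd9-3. Nothing in the labels says whether the replicates of a genotype came from separate pools of plants, so any p-value measures only the spread between these libraries. Flowers are a mixture of tissues, and fewer nuclei with an open site cannot be told apart from less accessibility per nucleus.

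In the shoot epidermis, an R2R3-type MYB protein (GL1 or its close relative MYB23), a bHLH protein (GL3 or EGL3) and the WD40-repeat protein TTG1 form a complex that switches on GL2, a homeodomain gene needed for a cell to become a trichome. The same complex switches on the small single-repeat MYB proteins TRY and CPC, which move to neighbouring cells, displace the R2R3 MYB from the bHLH protein and so keep those cells hairless. In the root, WER takes the place of GL1 and the complex sets cells to become hairless. Regulatory DNA of GL1 is known on both sides of the gene: an enhancer past its 3′ end is needed for its activity in trichomes.

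The sequences of the regions on which the results turn are given first, in TAIR10 and on the strand of the gene they accompany. They comprise the 3 GL1 regions with different patterns of calling, the strongest region at TRY, and the CPC region, the second in strength at these genes among those listed in wild type alone. For the GL1 3′ region, listed in wild type alone, 300 bp centred on the strongest summit were taken (chr3:10358722-10359021, minus strand). The GL1 shared region, listed in all 4 libraries, spans chr3:10360812-10360949 (minus strand). Of the GL1 start region, listed in mbd9-3 alone, the bases upstream of the TSS are shown (chr3:10363608-10363725, minus strand). The TRY 3′ region, taken in the same way, was listed in all 4 libraries (chr5:21585312-21585611, plus strand), and the CPC upstream region in wild type alone (chr2:19050978-19051075, minus strand). Capitals mark matches, on either strand, to a MYB recognition core (CNGTTA or CNGTTG), an E-box (CANNTG), an L1 box (TAAATGCA or TAAATGTA) or a site II element (GGCCCA), the last added to the search after the sequences had been read.
GL1 3′ region: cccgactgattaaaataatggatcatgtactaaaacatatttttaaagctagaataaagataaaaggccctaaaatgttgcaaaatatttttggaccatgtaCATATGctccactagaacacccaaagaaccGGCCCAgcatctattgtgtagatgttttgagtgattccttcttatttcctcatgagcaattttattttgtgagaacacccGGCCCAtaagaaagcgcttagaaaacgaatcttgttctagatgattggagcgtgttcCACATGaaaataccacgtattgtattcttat
GL1 shared region: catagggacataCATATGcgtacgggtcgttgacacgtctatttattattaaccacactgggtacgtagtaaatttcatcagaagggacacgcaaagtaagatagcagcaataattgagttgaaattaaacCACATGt
GL1 start region: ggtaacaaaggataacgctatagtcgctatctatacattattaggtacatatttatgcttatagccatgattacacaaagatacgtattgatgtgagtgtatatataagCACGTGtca
TRY 3′ region: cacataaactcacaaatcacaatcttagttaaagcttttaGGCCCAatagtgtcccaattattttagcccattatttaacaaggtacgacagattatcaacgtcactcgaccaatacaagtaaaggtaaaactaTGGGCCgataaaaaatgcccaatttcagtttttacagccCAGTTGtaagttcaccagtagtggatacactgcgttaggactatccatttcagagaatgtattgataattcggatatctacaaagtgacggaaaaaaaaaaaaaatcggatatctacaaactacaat
CPC upstream region: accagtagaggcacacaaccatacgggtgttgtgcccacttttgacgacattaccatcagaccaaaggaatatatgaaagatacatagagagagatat

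R2R3 MYB proteins bind the MYB core, bHLH proteins the E-box and homeodomain proteins of the GL2 class the L1 box. The GL1 3′ region held 2 E-boxes, CATATG and CACATG, and no MYB core or L1 box. At least 1 E-box was found in 70.2% of windows of 300 bp placed in the same way on all regions, and at least 2 in 35.6%, so the number in the GL1 3′ region was a common one. It also held 2 site II elements, which TCP proteins bind, and 4.26% of all such windows held at least 2. That motif was added after the sequences had been read, so its share is a description and not a test. The GL1 shared region had 2 E-boxes, against at least 2 in 15.2% of windows of its length, and the stretch before the GL1 start had 1, CACGTG, against at least 1 in 43.9% of windows of its length. In the TRY 3′ region a single stretch, CAGTTG, matched both the MYB core and the E-box. A MYB core was present in 54.4% of windows of 300 bp. The TRY region, too, held 2 site II elements, 1 on each strand. The CPC upstream region matched none of these motifs, which were found in 25.5% (MYB core), 38.9% (E-box), 0.866% (L1 box) and 8.23% (site II element) of windows of 98 bp. These matches describe the letters of the windows and do not show that a protein was bound.

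The wild-type lists held 44004 and 43962 peaks and the mbd9-3 lists 45208 and 37609 peaks for replicates 1 and 2. Read totals were not part of the lists, so depth was read from the lowest background pileup of each list, which was 1.75 and 2.15 tags in wild type against 1.72 and 1.79 tags in mbd9-3. Wild-type replicate 2 was thus the deepest library on this measure, and it also listed the most summits at the trichome genes. The library with the lowest background, mbd9-3 replicate 1, had the longest list of peaks. Whether depth set any of these counts was not tested. No summit was listed below 5 tags in the libraries numbered 1 or below 6 tags in those numbered 2, so weaker sites could not be detected. Among 6 flower markers, genes that specify floral organs or the floral meristem, all 6 had summits of all 4 libraries in their window. Over all protein-coding genes that share was 87.8%. A summit of every library within 1 kb upstream of the TSS was found at 2 of them, AP1 and SEP3, against 34.3% of all genes. AG had such a promoter summit in 2 libraries, AP3 and PI in 1 library each, and LFY in none. Among 4 root markers, all 4 had summits of all 4 libraries. SCR had a promoter summit in every library, COBL9 in 3 libraries, and PLT1 and CASP1 in none. A peak is not a measure of expression, so neither list tests the tissue label.

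GL1 (AT3G27920, chr3:10361790-10363607, minus strand) encodes the R2R3 MYB that starts trichome formation, and its locus carried both a region listed only in wild type and a region listed only in mbd9-3. The wild-type region spanned chr3:10358679-10359127 (449 bp), in intergenic DNA. Its strongest summit lay 2918 bp past the end of GL1 and 591 bp upstream of the next gene, AT3G27910 (chr3:10357232-10358281, minus strand). The region is named after GL1 by position only, and which of these genes it serves was not tested. Whether it overlaps the known enhancer of GL1 was not examined. The fold enrichment, the summit pileup divided by the background of that library with 1 tag added to each, reached 11.3 and 9.55 in wild-type replicates 1 and 2, and the pileup was 33 tags in both. These values had rank percentiles of 96.9 and 93.2 among all peaks of their lists. In wild-type replicate 1 the interval held 3 summits, with fold enrichments of 4.29, 11.3 and 4.31, and in replicate 2 it held 1. Neither mbd9-3 library listed a peak there, and the stretch around the region without a peak was 4856 bp in mbd9-3 replicate 1 and 4309 bp in replicate 2. The lists hold peaks alone, so weaker mbd9-3 signal than a called peak was not measured. At the lowest background of their lists, 1.72 and 1.79 tags, the mbd9-3 libraries did list summits of 5 and 6 tags elsewhere. The mbd9-3 background at the region itself is not known, since only listed peaks carry one. In wild type it was 2.01 and 2.56 tags at the strongest summits.

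Regions called in both libraries of one genotype and in neither of the other made up 2.69% of all 64218 regions for wild type (1729 regions) and 1.54% for mbd9-3 (986 regions). Such regions are those called wild-type-only or mbd9-3-only here, or listed in one genotype alone. They were weak as a class. The median of their mean rank percentile was 28.3 for wild type and 27 for mbd9-3, whereas that of the 19546 regions shared by all 4 libraries was 70.1. With a mean rank percentile of 95.05, the GL1 3′ region was second in strength among the 1729, behind a region at 98.4 and just ahead of one at 94.6, and it lay far above the upper quartile of 38.5. This position is what brought the locus into the selection, so it is given as a description. At 449 bp it was also longer than the median of 136 bp for regions called only in wild type.

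**Figure D1:**
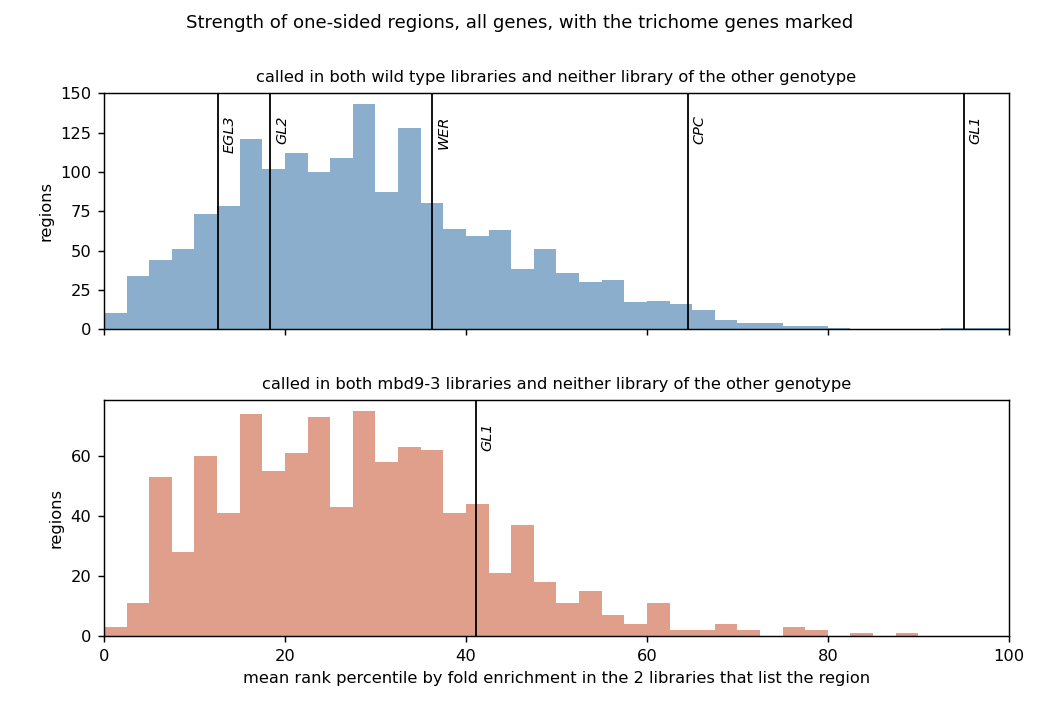
Histograms of the mean rank percentile by fold enrichment (x axis) of all regions called in both libraries of one genotype and neither of the other, with the number of regions on the y axis (upper panel, 1729 wild-type regions; lower panel, 986 mbd9-3 regions). Vertical lines mark the trichome genes: the GL1 3′ region stands at 95.05, beyond nearly all others, while those of EGL3, GL2 and WER lie in the bulk of the distribution.

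The region listed only in mbd9-3 covered the start of GL1 itself (chr3:10363553-10363725, 173 bp), with the stronger summit 15 bp into the 5′ UTR in replicate 2 and the summit of replicate 1 at 59 bp upstream of the TSS. Fold enrichments were 3.10 and 3.92 from pileups of 8 and 11 tags in mbd9-3 replicates 1 and 2, with rank percentiles of 35.4 and 46.8. Neither wild-type library listed a peak within 1325 bp of it. It was 173rd in strength among the 986 regions of its kind, so it was a weaker member of the lists than the 3′ region. Its −log10 q-values were 2.12 and 3.90, against 26 and 23.0 for the 3′ region in wild type.

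The GL1 shared region, 924 bp past the end of the gene, was listed in every library. Its fold enrichment was 3.52 and 4.55 in wild type against 3.68 and 4.99 in mbd9-3, and both libraries numbered 2 were above both numbered 1. The genotypes thus overlapped there. Upstream of GL1, a region 1487 bp from the TSS was listed only in the libraries numbered 2, at 2.78 in wild type and 2.52 in mbd9-3. A second upstream region, 1833 bp from the TSS and overlapping the long non-coding gene AT3G05375, was listed in wild-type replicate 2 (3.05) and in mbd9-3 replicates 1 (3.65) and 2 (2.83). In the mapped interval (chr3:10355000-10366000), every library also listed a region within AT3G27906, where the fold enrichment was 4.85 and 5.91 in wild type against 6.99 and 6.71 in mbd9-3. Beyond these, wild-type replicate 2 alone listed a peak of 2.13 in AT3G27910 and mbd9-3 replicate 2 alone one of 2.67 in AT3G27906. On either side of the 3′ region, the nearest region shared by both genotypes was therefore listed in every library.

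**Figure D2:**
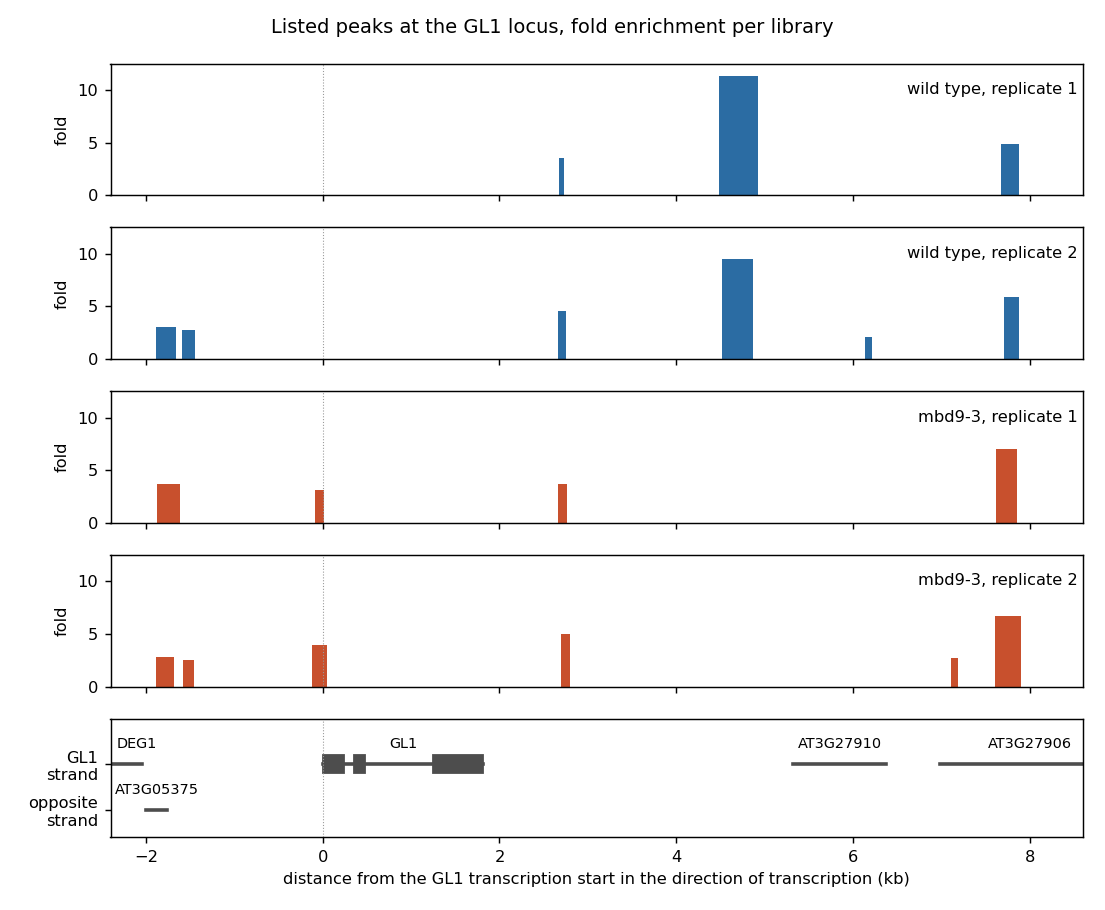
Peaks listed in each library along the GL1 locus, with the distance from the GL1 TSS in the direction of transcription (kb, x axis) and the fold enrichment (y axis), above a map of the annotated genes in which boxes mark GL1 exons. The tallest bars, 11.3 and 9.55, are those of the 2 wild-type libraries between 4.48 and 4.93 kb, where the mbd9-3 panels are empty, while bars at the TSS appear in the mbd9-3 panels alone.

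WER (AT5G14750, chr5:4763372-4764834, minus strand), the R2R3 MYB of the root epidermis, had no summit upstream or in its body in any library. All of its 11 summits lay past its end, within the neighbouring gene AT5G14740. The region listed in all 4 libraries was 1733 bp past the end, in an intron of that neighbour, with fold enrichments of 4.73 and 3.81 in wild type against 5.15 and 3.59 in mbd9-3. The ranges of the genotypes overlapped. A region 3521 bp past the end, in the 5′ UTR of the neighbour, was listed in wild type alone, at 2.91 and 3.81 from 7 and 11 tags. Between them, a region 2165 bp past the end was listed at 3.28 in wild-type replicate 1 and at 4.05 and 4.31 in mbd9-3.

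MYB23 (AT5G40330, chr5:16127725-16129661, plus strand), the relative of GL1 that also acts in trichome branching, had the fewest summits of the 9 genes. Wild-type replicate 1 listed none, and wild-type replicate 2 and the mbd9-3 libraries listed 1, 1 and 2. A peak 23 bp upstream of the TSS was listed in mbd9-3 replicate 2 alone (3.23) and one in an intron in mbd9-3 replicate 1 alone (3.68). The only region shared by 2 libraries lay 1817 bp past the end, in the 3′ UTR of the neighbour AT5G40340, which the libraries numbered 2 listed, at 3.72 in wild type and 3.34 in mbd9-3. No region of MYB23 was thus listed in both libraries of either genotype.

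At the bHLH genes, 10 of 13 summits of GL3 and 9 of 17 of EGL3 lay within the gene bodies. GL3 (AT5G41315, chr5:16529090-16533287, plus strand) had 2 regions in all 4 libraries. The stronger, in an intron 1178 bp into the gene, had fold enrichments of 3.64 and 3.81 in wild type against 3.31 and 5.38 in mbd9-3. The other, in a coding exon 3459 bp into the gene, had 3.64 and 2.86 in wild type against 2.52 and 2.51 in mbd9-3. At this exon each wild-type library was above each mbd9-3 library, with rank percentiles of 50.6 and 19.6 against 11.6 and 7.61. The same order held at 20.2% of all regions listed in every library. EGL3 (AT1G63650, chr1:23599413-23603164, plus strand), a bHLH partly redundant with GL3, had no region in all 4 libraries. Its 5′ UTR region, 54 bp into the gene, was listed at 4.54 in wild-type replicate 2 and at 4.24 and 3.10 in mbd9-3, and not in wild-type replicate 1. A coding-exon region 3112 bp into EGL3 was listed in wild type alone, at 2.18 and 2.87 from 5 and 9 tags. It was among the weakest of its kind, 1512th of 1729.

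TTG1 (AT5G24520, chr5:8370317-8372847, minus strand), the WD40 scaffold of the complex, had the most summits of the 9 genes, 25 in all. It had no region called in both libraries of one genotype and neither of the other. A region 68 bp upstream of its TSS was listed in every library, with fold enrichments of 2.70 and 5.0 in wild type against 2.83 and 4.69 in mbd9-3. The libraries numbered 2 were high and those numbered 1 low in both genotypes. A second region, 1209 bp upstream, had 2.43 and 5.25 in wild type against 3.89 and 3.37 in mbd9-3. The third, 1707 bp past the end in a coding exon of AT5G24500, had 2.43 and 3.48 in wild type against 3.82 and 2.61 in mbd9-3. At each of these 3 regions the wild-type and mbd9-3 ranges overlapped.

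GL2 (AT1G79840, chr1:30036956-30041440, plus strand) encodes the homeodomain protein that the complex switches on. Its strongest region lay 511 bp past the end, in the 5′ UTR of AT1G79850, with fold enrichments of 6.38 and 4.40 in wild type against 3.62 and 4.85 in mbd9-3. A region 1190 bp upstream of the TSS had 2.47 and 2.67 in wild type against 3.46 and 2.52 in mbd9-3. The ranges overlapped at both. Closer to the TSS, 340 bp upstream, a region was listed in wild type alone, at 2.68 and 2.83 from 8 and 10 tags, with rank percentiles of 19.2 and 17.5.

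The 2 genes for single-repeat MYB inhibitors carried the strongest regions that all 4 libraries shared. At TRY (AT5G53200, chr5:21582614-21584243, plus strand) a region past the 3′ end had fold enrichments of 8.13 and 8.89 in wild type against 8.10 and 8.29 in mbd9-3. It lay in intergenic DNA 1219 bp past the end of TRY and 757 bp past the end of the convergent gene AT5G53210, and the pileups were 22 and 27 tags in wild type against 21 and 23 in mbd9-3. Its rank percentiles lay between 91.0 and 92.0 in the 4 libraries. It and the GL1 3′ region were the only 2 of the 55 regions with a rank percentile over 90 in every library that listed them. Relative strength was compared on normal scores, the ranks of fold enrichment within each list turned into standard normal quantiles, over all regions listed in every library. The mean normal score of the TRY 3′ region was 0.90 in wild type and 1.0 in mbd9-3, a difference (mbd9-3 minus wild type) of 0.11 ± 0.37 (SE; limma, adjusted p = 0.996).

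Within TRY, a region in the 5′ UTR 109 bp from the TSS had fold enrichments of 4.07 and 5.99 in wild type against 5.52 and 5.19 in mbd9-3. An intron region 944 bp into the gene had 8.22 and 6.24 in wild type against 5.15 and 3.26 in mbd9-3, from pileups of 23 and 20 tags against 13 and 9. In the intron each wild-type library was above each mbd9-3 library, with rank percentiles of 91.2 and 77.3 against 76.4 and 30.0. Of all regions listed in every library, 20.2% had their ranks in this order. The mean normal score was 0.53 in wild type and -0.54 in mbd9-3. This difference of -1.07 ± 0.50 (SE) was the largest in either direction among the 14 regions at the 9 genes that every library listed. It did not pass the threshold (limma, unadjusted p = 0.0645, adjusted p = 0.905). Without mbd9-3 replicate 2, the library with the lowest value, the difference was -0.45, and without mbd9-3 replicate 1 it was -1.69. Without wild-type replicate 1 it was -0.69, and without wild-type replicate 2 it was -1.44.

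CPC (AT2G46410, chr2:19049021-19050369, minus strand) had no summit within its body. A broad region of 760 bp, 1710 bp upstream of the TSS, had fold enrichments of 6.28 and 5.83 in wild type against 6.37 and 6.1 in mbd9-3. A region 121 bp past the end had 5.81 and 6.29 in wild type against 4.64 and 6.62 in mbd9-3. Neither separated the genotypes. Between the upstream region and the TSS lay the CPC upstream region, 655 bp from the TSS, which was listed in wild type alone at 4.67 and 4.74 from pileups of 14 and 17 tags. Its rank percentiles were 68.3 and 60.8, and it was 37th in strength among the 1729 regions listed in wild type alone.

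**Figure D3:**
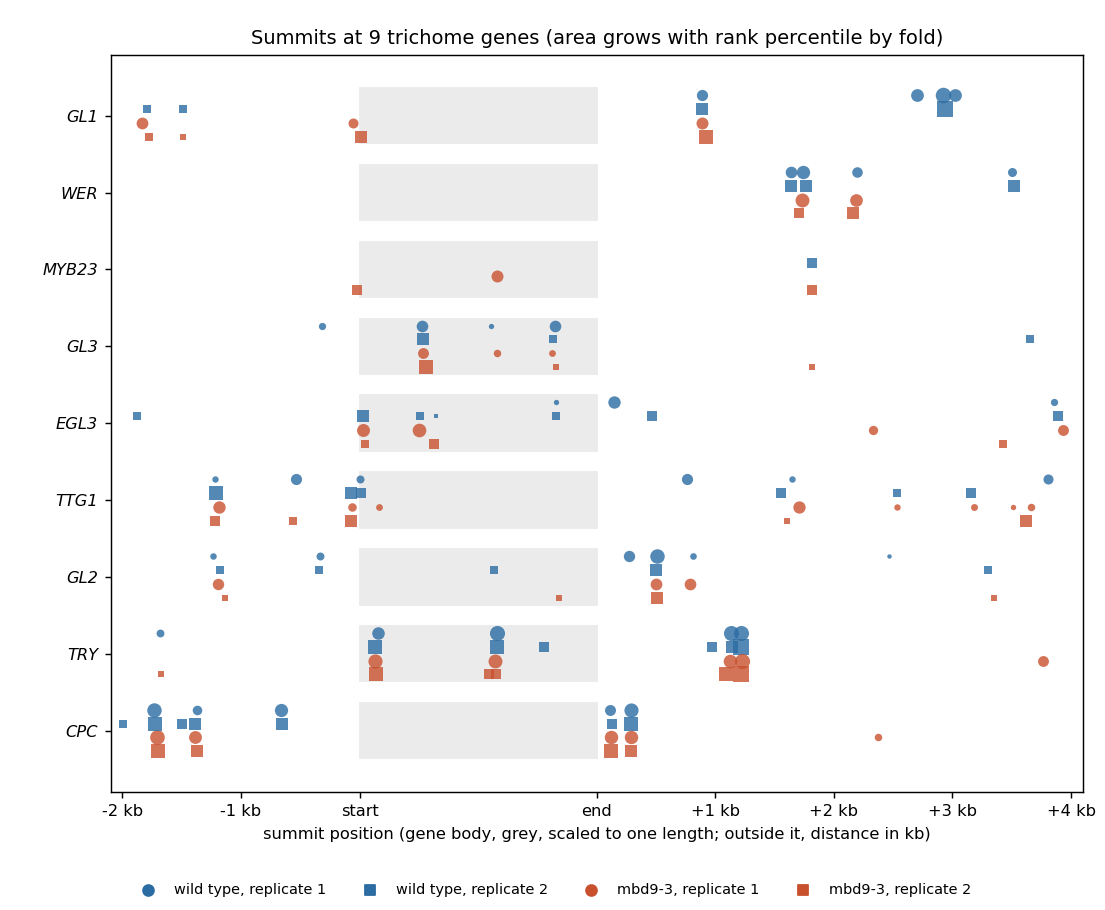
Summits of the 4 libraries at the 9 genes, with the position relative to the gene on the x axis (gene body in grey, scaled to one length; distances outside it in kb) and 1 band per gene on the y axis. Colour marks the genotype, shape the replicate, and symbol area grows with the rank percentile. Of the 146 summits, 38 lie upstream, 72 past the end and 36 (24.7%) within the gene bodies, which hold 30% of the bases of the windows. WER has summits past its end alone.

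The number of summits per gene and library ran from 0 at MYB23 in wild-type replicate 1 to 8 at TTG1 in mbd9-3 replicate 1, and GL1 had 4 and 4 in wild type against 3 and 4 in mbd9-3. Summed over the 9 genes, wild type had 37 and 42 summits and mbd9-3 had 34 and 33. These sums include the GL1 3′ region, on which the locus was selected, so no test is given for them (means 39.5 ± 3.54 and 33.5 ± 0.707, SD, n = 2 each). With that region left out, the counts were 34 and 41 in wild type against 34 and 33 in mbd9-3. Wild-type replicate 1 then equalled mbd9-3 replicate 1, and the difference was -4 (two-sided exact permutation test, p = 0.667, where groups of 2 allow no value under 0.333). Counting each interval once, with the GL1 3′ region included, gave 31 and 36 against 32 and 30, so the genotypes overlapped there too. As a share of the list, the summits came to 0.841 and 0.955 per 1000 peaks in wild type against 0.752 and 0.877 in mbd9-3, which again overlapped. Peaks covered 4.82 and 5.41 kb of the windows in wild type against 4.29 and 4.28 kb in mbd9-3, a difference of -0.831 kb. Without the GL1 3′ region, the covered lengths were 4.37 and 5.05 kb in wild type against 4.29 and 4.28 kb in mbd9-3, and the difference was -0.427 kb (two-sided exact permutation test, p = 0.333, the smallest possible). The 9 genes were chosen with earlier results of these data known, so neither p-value is that of an unselected set.

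Of the 55 regions, 14 (25.5%) were called in all 4 libraries, against 30.4% of all regions, and 19 in 1 library. Regions called in wild type alone numbered 5 (9.09%, against 2.69% of all regions), and 1 was called in mbd9-3 alone (1.82%, against 1.54%). By gene, 5 of the 9 had a wild-type-only region in the window, against 13.1% of all protein-coding genes, and 1 of the 9 had an mbd9-3-only region, against 7.31%. Of the 6 flower markers, 4 (AP1, PI, AG and LFY) also had a wild-type-only region and 0 an mbd9-3-only region. Of the 4 root markers, 0 had a wild-type-only region and 1 (CASP1) an mbd9-3-only region. GL1 had both kinds, as did 1.12% of all genes. Summits of all 4 libraries were found at 8 of the 9 genes, MYB23 being the exception, against 87.8% of all genes. The 9 genes and the marker lists were chosen with earlier results of these data known, so these shares are descriptions and test nothing. The GL1 region is counted here although it was selected on this pattern, and the other 4 wild-type-only regions were at CPC, WER, GL2 and EGL3. With a −log10 q-value of at least 5 required of each peak, only those at GL1 and CPC were left. Upstream of the TSS lay 13 of the 55 regions, 15 lay in gene bodies and 27 past the ends, and the strongest summit of 21 lay inside another annotated gene. All 55 regions are tied to the trichome genes by distance alone. The GL1 3′ region lay nearer to the start of AT3G27910 (591 bp) than to the end of GL1 (2918 bp).

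For each edge of the windows, the nearest summit on either side was taken. The 18 from within had fold enrichments from 2.43 to 4.29 with a median of 3.08, at 8 to 5099 bp from the edge (median 565.5). The 18 from outside had 2.12 to 10.9 with a median of 2.99, at 81 to 5523 bp (median 527.5). Some of these summits were thus far from the edge, and the values do not test where the windows end. The highest outside values were 10.9 beyond the far end of the MYB23 window and 10.8 upstream of the TTG1 window, both in wild-type replicate 2.

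Shifts in strength at regions shared by all 4 libraries were tested by limma on these normal scores across the genome. Over all 19546 such regions 0 (0%) had an adjusted p-value under 0.05, and 1046 (5.35%) had an unadjusted p-value under 0.05. Of the 14 regions at the trichome genes, the mean was higher in mbd9-3 at 11, with a median difference of 0.20, against a median of 0 and 49.7% higher in mbd9-3 over all regions tested. Both values changed with the library left out. Without mbd9-3 replicate 2, 8 of the 14 were higher and the median was 0.04, and without mbd9-3 replicate 1, 9 with a median of 0.12. Without wild-type replicate 1, 9 were higher with a median of 0.08, and without wild-type replicate 2, 9 with a median of 0.24. The differences ran from -1.07 in the TRY intron to 0.59 ± 0.45 (SE) in the region 1190 bp upstream of GL2 (limma, adjusted p = 0.94). At GL2 the difference was 0.03 without mbd9-3 replicate 1 and 1.15 without mbd9-3 replicate 2, so it depended on mbd9-3 replicate 1, the highest library. Both wild-type ranks were above both mbd9-3 ranks at 2 of the 14 regions, the GL3 exon and the TRY intron, against 20.2% of all regions tested. The reverse held at 1 of the 14, the TRY 3′ region, against 13.3%, where the rank percentiles ran from 91.0 to 92.0.

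**Figure D4:**
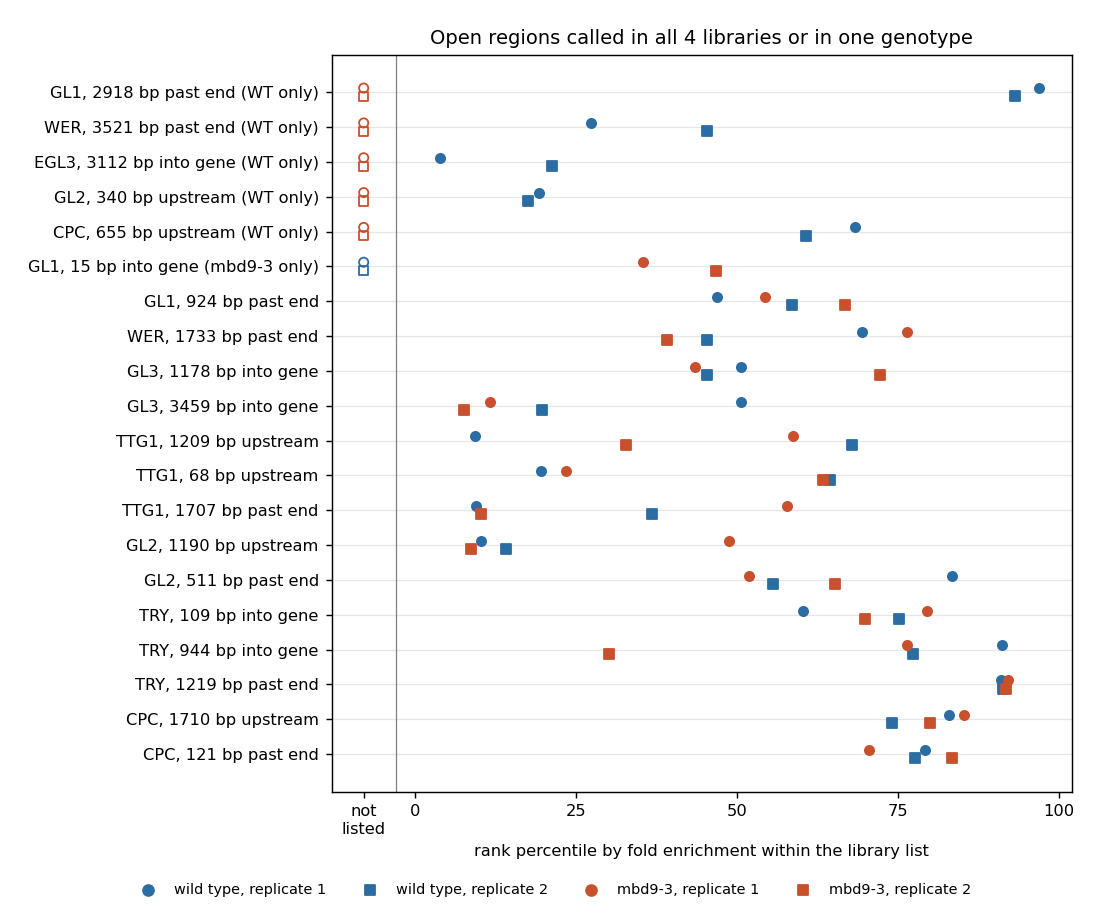
Rank percentile by fold enrichment within each library (x axis) of the regions at the 9 genes that were called in all 4 libraries or in 1 genotype alone (y axis, named by gene and distance of the strongest summit). Open symbols at the left mark libraries that did not list the region. The GL1 3′ region is at 96.9 and 93.2 in wild type, and the 4 libraries coincide at the TRY 3′ region.

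Other genes of the pathway were examined in windows of the same size: 27 genes that act with the 9 above, as further inhibitors (ETC1, ETC2, ETC3, TCL1, TCL2), MYB and bHLH partners (MYB5, TT8, MYC1), targets and regulators (TTG2, GIS and its relatives) and genes of branching and epidermal identity. Of these, 24 had summits of all 4 libraries (87.8% of all protein-coding genes), 4 had a region listed in wild type alone (13.1% of all genes) and 2 a region listed in mbd9-3 alone (7.31% of all genes), so the counts were near the shares over all genes. The 4 wild-type regions were at MYB5 (3.64 and 3.18 in replicates 1 and 2), GIS (3.28 and 2.54), STI (2.55 and 2.86) and PDF2 (2.55 and 2.99). The mbd9-3 regions were at SAD2 (3.20 and 2.60) and MYB106 (2.88 and 3.77). MYB5 encodes an R2R3 MYB related to GL1, GIS a zinc finger protein acting upstream of the complex, STI a protein needed for branching, PDF2 a homeodomain protein of the epidermis, SAD2 an importin and MYB106 a MYB that restrains branching. None of these 6 regions reached the fold enrichment of the GL1 3′ region or of the CPC upstream region. A summit of every library within 1 kb upstream of the TSS was found at 5 of the 27 genes, against 34.3% of all genes, and no library had one at 11, against 35.5%.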

How the data were processed

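ATAC-seq peak lists of 4 libraries were analysed: wild type and mbd9-3, 2 libraries each, grouped by the sample titles. According to the methods of the study, the authors used trim_galore for adaptors, aligned to TAIR10 with Bowtie (the submitters' processing notes name Bowtie2) and discarded duplicates and reads of organelles with SAMtools. The caller, its options and any Tn5 shift are not given in the sources used here. No control library is among the 4 samples, and the authors deposited 1 narrowPeak list per library. In each, the fold enrichment is a ratio to the background of the same library, as deposited. The deposited −log10 p-value and −log10 q-value are per summit and were used for filtering and for recovering pileups. The p-value also gave an alternative ranking, and the q-value was quoted for the GL1 3′ and start regions. The score deposited by the authors was not used as a measure.

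Lists called one by one share no scale, so peaks were ranked within each list. How depth moved the calls was not tested. Pileup and background were solved from fold and p-value as a Poisson upper tail, with 99.9% of peaks matched within 0.0001 in −log10 p. A summit missing from a list (45 to 86 peaks) was put at the middle of its interval. Gene models were those of TAIR10.1 (RefSeq), whose nuclear chromosomes have the lengths of TAIR10, and coordinates are 1-based. Peaks sharing 1 bp were merged.

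Values per library were compared with an exact two-sided permutation test (6 assignments). Relative strength was compared with limma 3.58.1 in R 4.3.3, adjusted over all regions by Benjamini-Hochberg. A run on simulated data checked the code alone and did not measure power at the spread of these libraries. Tables and plots were made in Python 3.11.15 (with pandas 2.3.3, numpy 2.4.6, matplotlib 3.10.9 and scipy 1.17.1). The members and the lists (27 pathway genes, 6 flower and 4 root markers) were chosen with earlier results of these data known. For each of the 9 genes, the strongest region and every region listed in 1 genotype alone were named, with every peak of the GL1 interval. Alternatives were −log10 q of at least 2 or 5, the 37609 top peaks of each list, 50% overlap, windows of 1 kb, each interval counted once, a replicate block, ranks by p-value or pileup, and each library left out in turn, and, chosen after seeing the data, the GL1 3′ region left out of the sums.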

Additional observations from a re-analysis of the deposited data

How the results depend on the processing

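Regions listed in wild type alone at the 9 genes numbered 5. They fell to 2 with −log10 q of at least 2, to 2 with at least 5, and to 2 with at least 5 required for presence and the full lists for absence, in each case those at GL1 and CPC. With windows of 1 kb there were 3, since the GL1 3′ region lies outside them. In every other setting tried the GL1 3′ region was among those counted. Its selection as a strong peak listed in wild type alone fixed this in advance, so it is no measure of robustness. Leaving out 1 library gave 5 to 10 such regions, 10 without wild-type replicate 1 and 9 without wild-type replicate 2. The 1 region listed in mbd9-3 alone, at the GL1 start, gave way to 0 with −log10 q of at least 5 under either rule for absence, and a second joined it, making 2, with 50% overlap (TTG1) or with the top 37609 peaks of each list (GL2). Leaving out 1 library gave 3 to 7, 3 without either wild-type replicate, 5 without mbd9-3 replicate 1 and 7 without mbd9-3 replicate 2. Fewer lists had to meet the rule in these settings. The difference in summits stayed negative, from -8.5 to -2.5 over all settings, and so did the covered length, from -1.13 to -0.206 kb. Both differences include the GL1 3′ region except with windows of 1 kb and where it was left out, an alternative chosen after seeing the data (-4 summits and -0.427 kb). limma made 0 calls in every alternative. The replicate numbers share only a number, since the labels do not tie them to a batch and there are 2 pairs. Deviations of same-numbered libraries correlated at 0.114 across 19546 regions. With a replicate block limma made 0 calls, with a smallest adjusted p-value of 0.682. The difference in summits stayed at -6, as it must with 2 balanced pairs, so that value says nothing about pairing. Sites under 5 or 6 tags could not be listed, so absence from a list is not absence of accessibility.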
